A study of Mus musculus with 18 samples.

Results

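The lactating mammary gland samples held a small population of cells with a fat cell transcriptome. These adipocyte-like cells were selected on the values of 4 transcripts: a cell had to hold 20 or more unique molecular identifiers (UMIs, counts of distinct captured transcripts) of Adipoq, Retn, Cidec and Cfd summed, at least 500 detected genes, and under 20% of its UMIs from mitochondrially encoded (mt-) genes. Among 12092 cells that met the gene and mitochondrial limits in the lactation libraries, 410 were adipocyte-like. There were 99 of 5342 cells in library F11, or 1.85% (exact 95% binomial interval 1.51 to 2.25%), and 311 of 6750 cells in library D6, or 4.61% (4.12 to 5.13%). These intervals cover counting error only.

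The series holds single-cell RNA profiles of mouse mammary tissue from the embryo to the gland after involution, 18 libraries and 133710 cells by the same limits. F11 and D6 are its lactation libraries, both from lactating FVB/NJ mice at 10 days after birth, labelled as epithelium, with no allele or treatment named. Per the study's methods, glands of several mice were pooled per library, sorted for cells positive for CD24 and CD29 and negative for the blood and endothelial markers TER-119, CD31 and CD45, and captured with a droplet kit that reads the 3′ end of transcripts. Library totals were 51526155 UMIs in F11 and 93234616 in D6, and the unit of replication was the library (n = 2), so cells were not counted as replicates.

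White adipocytes store triglyceride in a single large droplet, release fatty acids by lipolysis, and secrete hormones such as adiponectin and leptin. In the mammary gland they form the fat pad around the ducts and shrink during lactation, when the neighbouring secretory epithelium makes its own triglyceride for milk fat. Both cell types therefore use a fatty acid synthesis pathway, but they coat and release their lipid with partly different proteins.

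Values are given as counts per 1000000 (CPM), the summed UMIs of a gene in a class divided by a total from which 8 milk genes (5 caseins, Wap, Lalba and Glycam1) were left out. The comparison classes were secretory-like (1124 cells in F11, 2672 in D6), fibroblast-like (78 and 465) and immune-like cells (59 and 358) of the same libraries, named from clusters by fixed marker lists. The immune-like class of F11 also held transcripts of basal cells, the contractile epithelium. The 10 basal markers summed there to 7306 CPM, against 431 CPM in secretory-like and 905 CPM in fibroblast-like cells of F11. In immune-like cells of D6 they summed to 270 CPM. Cells of unnamed clusters were left out, milk-rich ones among them. The secretory-like class of F11 thereby held 1120 of the library's 3075 cells with a milk share of 50% or more, and that of D6 2528 of 3824. No test was run, because the cells were chosen on these same transcriptomes; a gene was counted as higher or lower where its CPM, with 5 CPM added to both sides, differed 4-fold or more from that of each of the 3 classes in both libraries. Genes with 20 or more UMIs in at least 1 of the 4 classes in each library are called tested. In every pair of values below, F11 stands first and D6 second.

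The gate separated a small group from a large one. No UMI of the 4 genes was found in 3063 cells of F11 and 3303 of D6, and 1 UMI in 1420 and 1674. From there the counts fell to 1 and 7 cells with 10 to 14 UMIs, and 3 and 7 cells with 15 to 19. Above the gate, 64 of the 99 cells in F11 and 256 of the 311 in D6 held 100 or more. The cells just inside it held 21, 22 and 23 UMIs in F11 and 22 to 24 in D6 (8 cells), and those just outside 15, 16 and 19 in F11 and 16 to 19 in D6 (7 cells). At this edge the gate did not part cell types sharply. Of the cells just inside, 1 of 3 and 5 of 8 lay in the adipocyte cluster described next, and of those just outside 0 of 3 and 4 of 7. The median adipocyte-like cell held 147 gate UMIs in F11 and 268 in D6, with ranges of 21 to 819 and 22 to 1677.

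**Figure D1:**
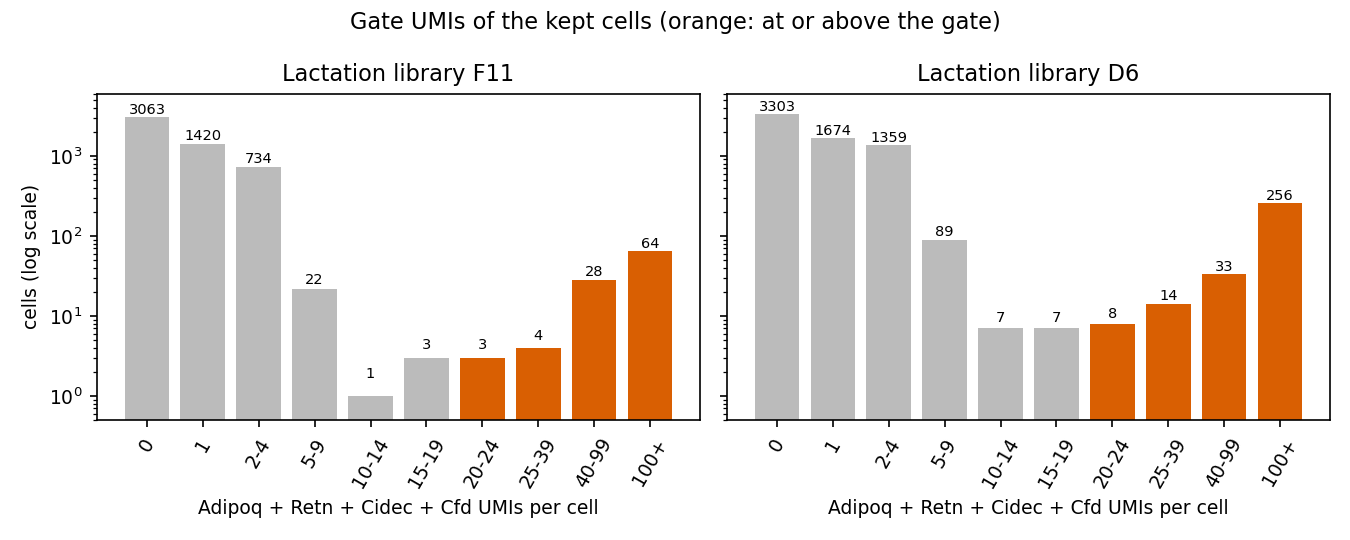
Number of kept cells (log axis) by the summed UMIs of Adipoq, Retn, Cidec and Cfd in the cell, for each lactation library, with cells at 20 or more in orange. Most cells hold 0 or 1 UMI, few lie between 10 and 19 (4 in F11, 14 in D6), and most cells past the gate hold 100 or more.

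When cells were clustered without milk genes and without the 4 gate genes, 97 of the 99 adipocyte-like cells of F11 and 304 of the 311 of D6 fell in a single cluster per library, in which all 5 adipocyte markers (the gate genes and Car3) were raised. The 4 gate genes were not used to form that cluster. It held almost only cells past the gate, so their rise there repeats that fact and adds nothing to it. Of the 5 markers, Car3 alone was not used to choose cells. The other 2 adipocyte-like cells in F11 lay in a cluster with endothelial markers. The other 7 in D6 lay in secretory-like (2), erythroid-like (1) and unnamed clusters (4). The libraries shared 47 barcodes of kept cells and 134 of all barcodes. No barcode was adipocyte-like in both. With 1.85 and 4.61% of cells adipocyte-like, 47 shared barcodes are too few for that to be informative. In addition, 5 barcodes were adipocyte-like in one library and a kept cell of any class in the other.

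The median adipocyte-like cell held 3685 and 6566 UMIs and 1164 and 1759 genes. Secretory-like cells held 8901.5 and 17984 UMIs, fibroblast-like cells 2156 and 2355, and immune-like cells 2679 and 3048. With every cell thinned to 500 UMIs outside the milk genes, which left out no cell, the median was 283 and 287 genes, beside 301 and 292 in secretory-like, 323 and 333 in fibroblast-like, and 291 in immune-like cells of both libraries. The median mitochondrial share was 14.1 and 15.9%, against 2.12 and 2.08% in secretory-like, 1.83 and 2.17% in fibroblast-like and 2.95 and 3.59% in immune-like cells. In mature luminal-like cells it was 3.85 and 11.7%. The limit on this share set how many cells were counted: 65 were left with a limit of 10% and 686 with none. The part of the mitochondrial share in the results below was not tested.

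The 5 marker genes are given first as a description, since 4 of them chose the cells. Adipoq encodes adiponectin (chromosome 16, 23146536 to 23158028, plus strand, GRCm38, the assembly also called mm10). Its level was 1558 CPM in F11 (95% Poisson interval 1424 to 1702, 492 UMIs) and 1702 CPM in D6 (1644 to 1762, 3236 UMIs), and it held 8.31 and 8.04 CPM in secretory-like cells. In F11 it gave 0 UMIs in fibroblast-like cells (upper limit 29.8 CPM) and in immune-like cells (upper limit 31.6 CPM). In D6 it gave 1 UMI in fibroblast-like cells and 0 in immune-like cells. Cfd, the complement protease adipsin (chromosome 10, 79890853 to 79892655, plus strand), reached 65979.5 and 51130.4 CPM, against 299 and 251 CPM in secretory-like cells. Retn, the hormone resistin (chromosome 8, 3655770 to 3660110, plus strand), stood at 7276 and 4522 CPM. Cidec, the protein that fuses lipid droplets toward a single one (chromosome 6, 113424634 to 113435760, minus strand), stood at 1394 and 1091 CPM.

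Car3, a carbonic anhydrase abundant in white fat (chromosome 3, 14863512 to 14872523, plus strand), was not used to choose cells. Its level was 7973 CPM in F11 and 12856 CPM in D6, 206 and 203 times that of secretory-like cells (38.8 and 63.4 CPM).

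Of the 12 further adipocyte markers that the gate did not use, 10 passed the count filter and 8 stood higher than all 3 classes, where 1.92% of all 6777 genes tested did so. Of these 10, 6 passed the filter only through the adipocyte-like cells in at least 1 library, which favours a higher call, and 5 of these 6 were among the 8. Over all genes 110 passed that way, and 71 of them were among the 130 higher ones. The counts therefore describe these cells and support nothing. The 1.92% is the share to read beside every later count against all 3 classes. Plin1, which coats the adipocyte droplet and gates lipolysis, held 307 and 366 CPM (97 and 696 UMIs) and at most 2.44 CPM in any of the 3 classes. The fibroblast-like and immune-like classes of F11 gave 0 UMIs of it and are too small to set a level that low. Plin4, another droplet protein, held 203 and 275 CPM, and Slc2a4, the insulin-responsive glucose transporter, 85.5 and 115 CPM. Cebpa, a transcription factor of adipocyte differentiation, held 253 and 179 CPM, 34.3 and 25.1 times the secretory-like level.

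Of the 4 remaining markers, 2 were tested and missed the 4-fold rule and 2 had too few UMIs to be tested. Pparg, the nuclear receptor that directs adipocyte differentiation, stood at 101 and 121 CPM (32 and 231 UMIs) but at 25.7 and 13.9 CPM in immune-like cells, on 3 UMIs in F11. Lpl, the lipase that frees fatty acids from circulating triglyceride, stood at 3431 and 3078 CPM, 1.62 and 1.44 times the 2122 and 2131 CPM of secretory-like cells. With milk kept in the totals its log2 ratio to that class was 2.65 and 2.50, in place of 0.69 and 0.53. Aqp7, the glycerol channel, held 4 and 30 UMIs.

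Lep, which encodes leptin (chromosome 6, 29060220 to 29073877, plus strand), was close to undetected in these cells. It gave 2 UMIs in 99 cells of F11 (6.34 CPM, Poisson interval 0.767 to 22.9) and 14 UMIs in 311 cells of D6 (7.36 CPM, 4.03 to 12.4). Secretory-like cells held 3.69 and 1.81 CPM. In basal-like cells, the contractile epithelium, Lep stood at 63.7 CPM (50.3 to 79.7, 77 UMIs) and 101 CPM (86.6 to 116, 182 UMIs), where Adipoq was at 0.828 and 5.53 CPM. In D6 this class included a cluster of 204 cells that also held endothelial markers (95 Lep UMIs). Another, of 43 cells, also held immune markers (18 Lep UMIs). In the D6 basal-like cluster of 334 cells Lep stood at 110 CPM. Lep was thus higher in basal-like than in adipocyte-like cells of both libraries, while the Adipoq difference was set by the rule.

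**Figure D2:**
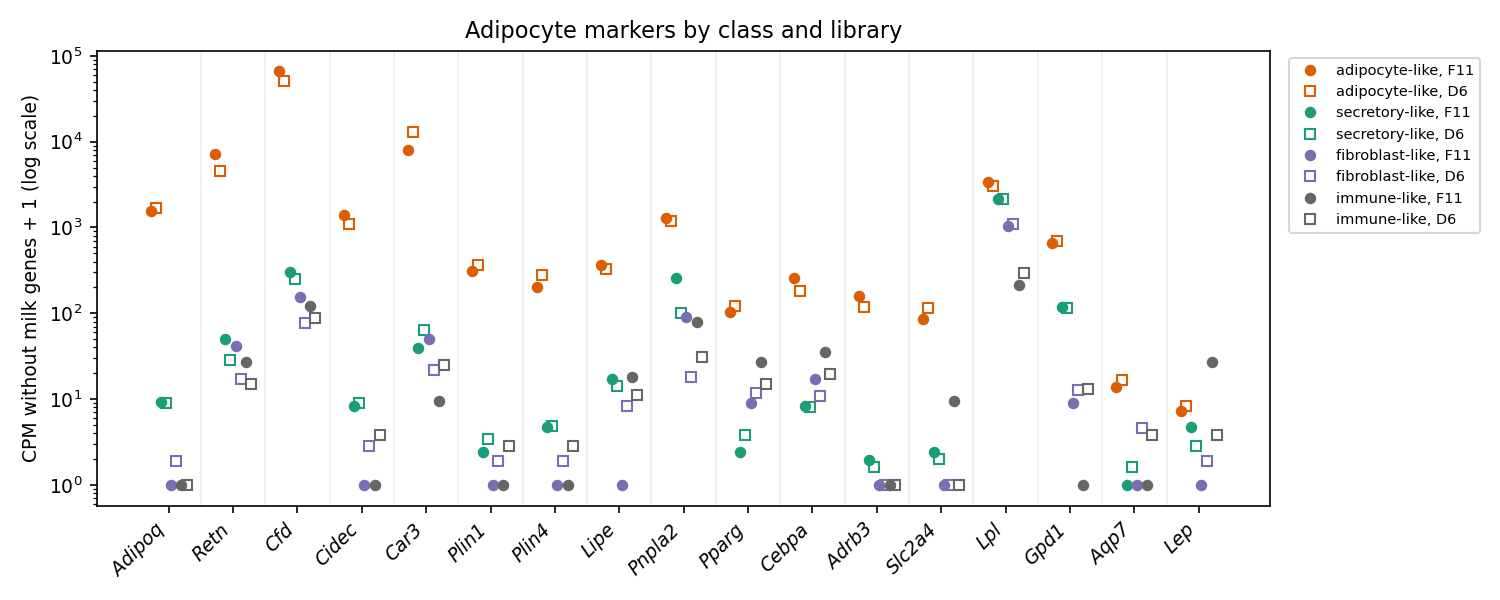
Level of the 17 adipocyte markers in 4 cell classes of each library, in CPM without milk genes plus 1 on a log axis; filled circles are F11 and open squares D6. Adipocyte-like cells lie above the other classes at most markers, Lep (6.34 and 7.36 CPM) and Aqp7 (12.7 and 15.8 CPM) lie near the bottom, and Lpl lies close to its level in secretory-like cells.

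Over all genes, 130 of 6777 stood 4-fold or more higher than each of the 3 classes in both libraries (1.92%) and 7 stood lower (0.103%). Against single classes, 244 genes were higher (3.6%) and 342 lower (5.05%) than in secretory-like cells, 251 higher (3.7%) and 268 lower (3.95%) than in fibroblast-like cells, and 342 higher (5.05%) and 266 lower (3.93%) than in immune-like cells. Scaling moved some of these splits. The share of higher calls against secretory-like cells was 41.6%, but 99.3% (961 higher, 7 lower) with milk genes kept in the totals. Against fibroblast-like cells it was 48.4%, with 60.3% under TMM factors (332 higher, 219 lower) and 60.7% with milk kept (314 higher, 203 lower).

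Keeping the milk genes moved the median log2 ratio of all tested genes to secretory-like cells from −0.35 and −0.20 to 0.97 and 1.09. Highly expressed genes such as Fasn moved further, from 1.82 and 1.94 to 3.78 and 3.90. Each ratio to that class therefore depends on the scaling, by an amount that differs between genes. The libraries gave similar profiles: of 1655 genes with 20 or more UMIs in adipocyte-like cells of both, 94.6% lay within 2-fold of each other.

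Among secreted factors, 12 of 13 listed genes were tested, and 5 stood higher than all 3 classes (1.92% of all genes did): the gate genes Adipoq, Retn and Cfd, and also Rbp4 and Hp. Rbp4, the plasma retinol carrier, held 1603 and 1499 CPM against 6.46 and 6.05 CPM in secretory-like cells and 121 and 43.5 CPM in fibroblast-like cells. Hp, haptoglobin, held 605 and 483 CPM. Apoe, a lipid-carrying apolipoprotein, held 2347 and 2389 CPM, which was 27.1 and 26.5 times the secretory-like level but below the 15015 and 10376 CPM of immune-like cells. With the secretory class as all cells at 50% milk or more, the log2 ratio of Apoe to it was 3.59 and 4.31, in place of 4.68 and 4.65. Of the tested genes of this list, 2 passed the filter only through the adipocyte-like cells.

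Droplet proteins keep stored lipid in place and the lipolysis genes release it. Among 13 of 14 droplet genes tested, Plin1, Plin4, Cidec and Bscl2 (seipin, which helps droplets form) stood higher than all 3 classes, and among 8 of 11 lipolysis genes Pnpla2, Lipe, Adrb3 and Pde3b did. Cidec was a gate gene, and 3 of these 4 droplet genes and 2 of these 4 lipolysis genes were tested only through the adipocyte-like cells. Against secretory-like cells alone, where 3.6% of all genes stood higher, 6 of the droplet and 5 of the lipolysis genes did. G0s2, an inhibitor of the first lipase, held 462 and 138 CPM against 1505 and 927 CPM in secretory-like cells, with the order turned in F11 when milk was kept in the totals (log2 ratio 0.26 and −0.74). Pnpla2, which encodes the first lipase of the lipolytic chain, held 1283 and 1185 CPM, 5.05 and 11.9 times the secretory-like level. Lipe, hormone-sensitive lipase, held 364 and 324 CPM, 22.6 and 24.2 times that level. Adrb3, the adipocyte's adrenergic receptor, held 158 and 118 CPM and under 1 CPM in each of the 3 classes. The fibroblast-like and immune-like classes of F11 cannot set so low a level, since 1 UMI there is at least 8 CPM.

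Of the droplet proteins of the CIDE family, Cidec was a gate gene, so its difference was set by the rule and is a description only. Cidec stood 189 and 136 times higher in adipocyte-like than in secretory-like cells. Cidea, which takes part in milk lipid secretion, held 953 and 766 CPM in adipocyte-like cells against 9296 and 6636 CPM in secretory-like cells. That was 0.364 and 1.5 times its level in fibroblast-like cells, 0.742 and 0.939 times that in immune-like cells, and below that in barcodes with under 500 genes (5284 and 1147 CPM). Without the cells at 30% milk or more it held 804 and 541 CPM. The part of free RNA and of doublets in this level was not tested. The difference from secretory-like cells kept its direction with milk kept in the totals (log2 ratio −1.31 and −1.13).

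Plin2, the droplet coat found in most cells, held 836 and 751 CPM against 1153 and 1059 CPM in secretory-like cells. This order turned when milk was kept in the totals, to a log2 ratio of 1.48 and 1.46.

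Fatty acid binding proteins also differed between adipocyte-like and secretory-like cells. Fabp4, the adipocyte fatty acid carrier, stood at 17505 CPM in F11 and 22796 CPM in D6, 23.5 and 39.8 times its secretory-like level of 745 and 572 CPM. Fabp3, the carrier of the lactating epithelium, stood at 2800.2 and 686 CPM against 27726 and 13415 CPM in secretory-like cells, and its level in barcodes under 500 genes was 19549.7 and 2666 CPM. Its difference from secretory-like cells also kept its direction with milk in the totals (−1.34 and −2.30). A few milk-rich cells carried much of it in D6, where it held 209.5 CPM without the cells at 30% milk or more (2224 CPM in F11). Of the 9 uptake and binding genes, all tested, Fabp4, Fabp5, Slc27a1 and Dbi stood higher than all 3 classes (1.92% of all genes did). Dbi, an acyl-CoA binding protein, held 8508 and 7657 CPM, 5.38 and 4.98 times the secretory-like level. Fabp4 was also at 16111 CPM in basal-like cells of D6 (719 CPM in F11), a class that in D6 included a cluster with endothelial markers.

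Of 12 listed genes of triglyceride synthesis 8 were tested, and Gpat3, Agpat2, Dgat2, Gpd1 and Pck1 stood higher than all 3 classes; 3 of these 5 passed the filter only through the adipocyte-like cells. Agpat2, which adds the middle acyl chain, held 3133 and 2393 CPM, 68.6 and 54 times the secretory-like level of 45.7 and 44.3 CPM. Dgat2, which adds the last acyl chain, held 1017 and 1195 CPM, 220.3 and 179 times the secretory-like 4.61 and 6.68 CPM. Lpin1, a phosphatidate phosphatase, held 348 and 354 CPM beside 379 and 395 CPM in secretory-like cells, and this order turned when milk was kept in the totals (log2 ratio 1.78 and 1.76). The list's median log2 ratio to secretory-like cells was 3.56 and 3.33, beside −0.35 and −0.20 for all tested genes. The filter favours this median, since 3 of its 8 genes passed only through the adipocyte-like cells.

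All 16 fatty acid synthesis genes were tested. Against fibroblast-like cells 12 of them stood 4-fold higher (3.7% of all genes did) and against immune-like cells 13 (5.05%), but against secretory-like cells 3 did (3.6%). This last count rested on the scaling. With milk genes kept in the totals 13 of the 16 stood 4-fold higher than in secretory-like cells, where 961 of all 6777 genes did. Among the 13 were Fasn (log2 ratio 3.78 and 3.90), Scd1 (3.67 and 4.12), Acly (3.41 and 3.53) and Thrsp (2.66 and 2.70). Fasn, fatty acid synthase, held 7200.1 and 6607 CPM against 2029 and 1722 CPM in secretory-like cells, 3.55 and 3.84 times, so it missed the 4-fold rule. Scd1, the desaturase that makes oleate, held 14369 and 19823 CPM, 3.27 and 4.42 times the secretory-like level. Acly, which makes cytosolic acetyl-CoA from citrate, held 2217 and 3104 CPM, 2.80 and 2.98 times that level. Thrsp, a lipogenic regulator, held 7314 and 6253 CPM, 1.62 and 1.66 times it.

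The 3 genes of this list that stood higher than all 3 classes were Elovl6, Acss2 and Mlxipl, of which Mlxipl passed the filter only through the adipocyte-like cells. Elovl6, which extends palmitate to stearate, held 1349 CPM in F11 and 2327 CPM in D6, 31.1 and 32.8 times the secretory-like 43.4 and 71 CPM. Acss2, acetyl-CoA synthetase, held 241 and 444 CPM, 12.4 and 11.1 times the secretory-like level, and Mlxipl, the glucose-sensing factor ChREBP, held 133 and 99.9 CPM. The polyunsaturated desaturase Fads2 was lower than in secretory-like cells, with 6.34 and 8.94 CPM (2 and 17 UMIs) against 96.4 and 83.8 CPM.

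**Figure D3:**
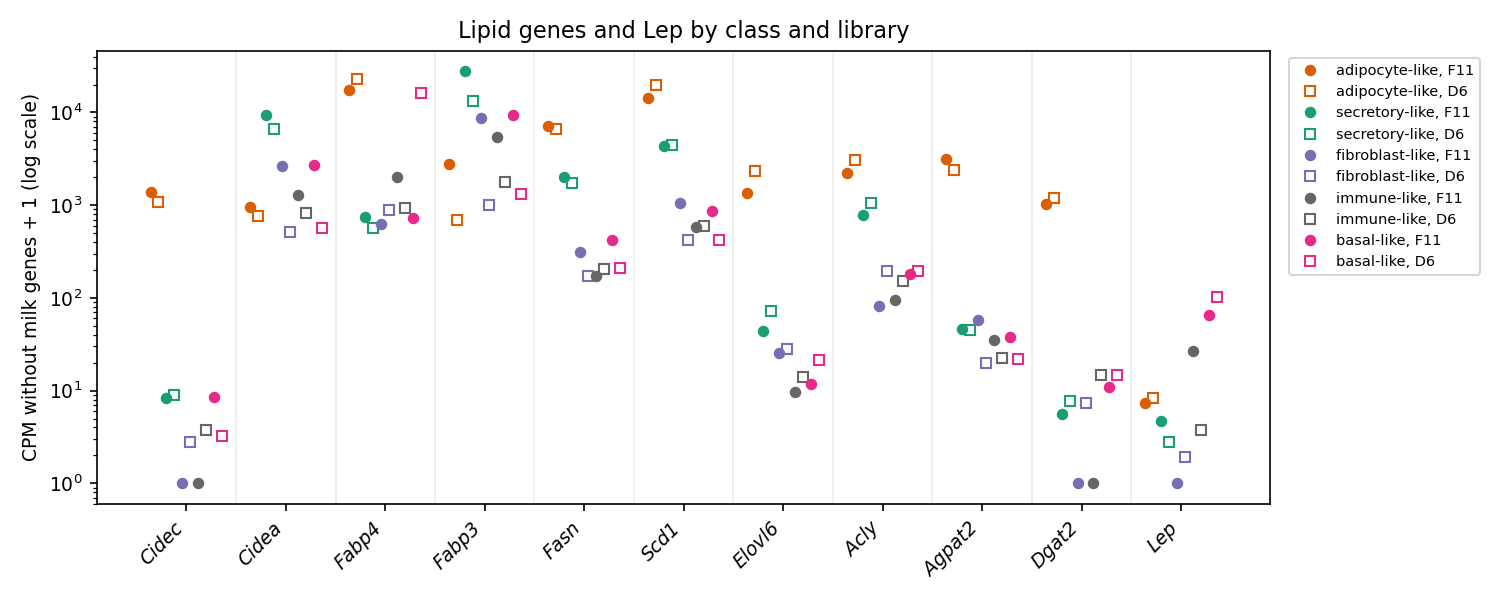
Level of 10 lipid genes and Lep in adipocyte-like, secretory-like, fibroblast-like, immune-like and basal-like cells, in CPM without milk genes plus 1 on a log axis; filled circles are F11, open squares D6, and the basal class of D6 includes a cluster with endothelial markers. Cidec, a gate gene, and Fabp4 lie higher in adipocyte-like and Cidea and Fabp3 higher in secretory-like cells. Fasn, Scd1 and Acly are high in both, and Lep lies highest in basal-like cells.

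In the list of other genes enriched in fat, 10 of 13 tested genes stood higher than all 3 classes (1.92% of all genes did), 8 of them tested only through the adipocyte-like cells. Among them were Mrap, a partner of the ACTH receptor, at 849 and 833 CPM, Cyp2e1, a cytochrome P450, at 754 and 578 CPM, and Adig, adipogenin, at 1409.6 and 1284 CPM.

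Of 13 of 14 oxidation and citrate cycle genes tested, Acadm and Acadl, dehydrogenases of fatty acid oxidation, stood higher than all 3 classes (1.92% of all genes did), at 307 and 422 CPM and at 168 and 155 CPM. Insr, the insulin receptor, held 31.7 and 58.4 CPM beside 21.2 and 24.3 CPM in secretory-like cells. Of 9 of 12 adipogenic transcription factors tested, Cebpa stood higher than all 3 classes, having passed the filter only through the adipocyte-like cells, while Cebpd held 190.1 and 90.5 CPM against 2755 and 2170.2 CPM in fibroblast-like cells.

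Markers of thermogenic fat gave a mixed picture. Of 12 brown and beige genes 6 were tested, and Cox8b (456 and 735 CPM), Elovl3 (88.7 and 65.2 CPM) and Kcnk3 (85.5 and 84.2 CPM) stood higher than all 3 classes (1.92% of all genes did), all 3 having passed the filter only through these cells. Cox8b encodes a subunit of the respiratory chain's last complex, and Elovl3 a fatty acid elongase. Ucp1, the uncoupling protein that defines brown fat, gave 4 UMIs in F11 (12.7 CPM) and 6 in D6 (3.16 CPM). Cpt1b gave no UMI in adipocyte-like cells of either library, and Dio2 gave 2 and 4.

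Stromal genes were low beside fibroblast-like cells, though not beside every class. Pdgfra, the receptor that marks adipocyte progenitors and fibroblasts, gave no UMI in adipocyte-like cells of either library, against 226 and 201 CPM in fibroblast-like cells. Dcn, the matrix proteoglycan decorin, gave 3.17 and 9.47 CPM against 7513 and 7711 CPM. All 12 tested of 13 extracellular matrix genes and all 4 tested of 11 preadipocyte genes stood 4-fold or more lower than in fibroblast-like cells, where 3.95% of all genes did. Col1a1, Col1a2, Col3a1 and Pdgfra among them were also markers that named the fibroblast-like clusters, which favours a lower call for them. Against secretory-like cells 4 of the 12 matrix genes stood higher (3.6% of all genes did), and the list's median log2 ratio was 0.64 and 0.43. Col3a1, a fibrillar collagen, held 53.9 and 50 CPM, against 8.77 and 20.5 CPM in secretory-like and 4669 and 5973 CPM in fibroblast-like cells. The preadipocyte gene F3, tissue factor, which had too few UMIs to be tested, held 41.2 and 64.2 CPM against 16.2 and 30.8 CPM in fibroblast-like cells. Of the 11 fibroblast markers 10 stood 4-fold lower than in fibroblast-like cells (3.95% of all genes did). These markers named the fibroblast-like clusters, so this count is a description only. The marker left was Gsn, the actin-severing protein gelsolin, at 988 and 1975 CPM. That was 0.289 and 0.237 of the fibroblast-like level but 89.2 and 43.9 times the secretory-like one. With the secretory class as all cells at 50% milk or more, the log2 ratio of Gsn to it was 4.81 and 5.13, in place of 5.95 and 5.31.

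**Figure D4:**
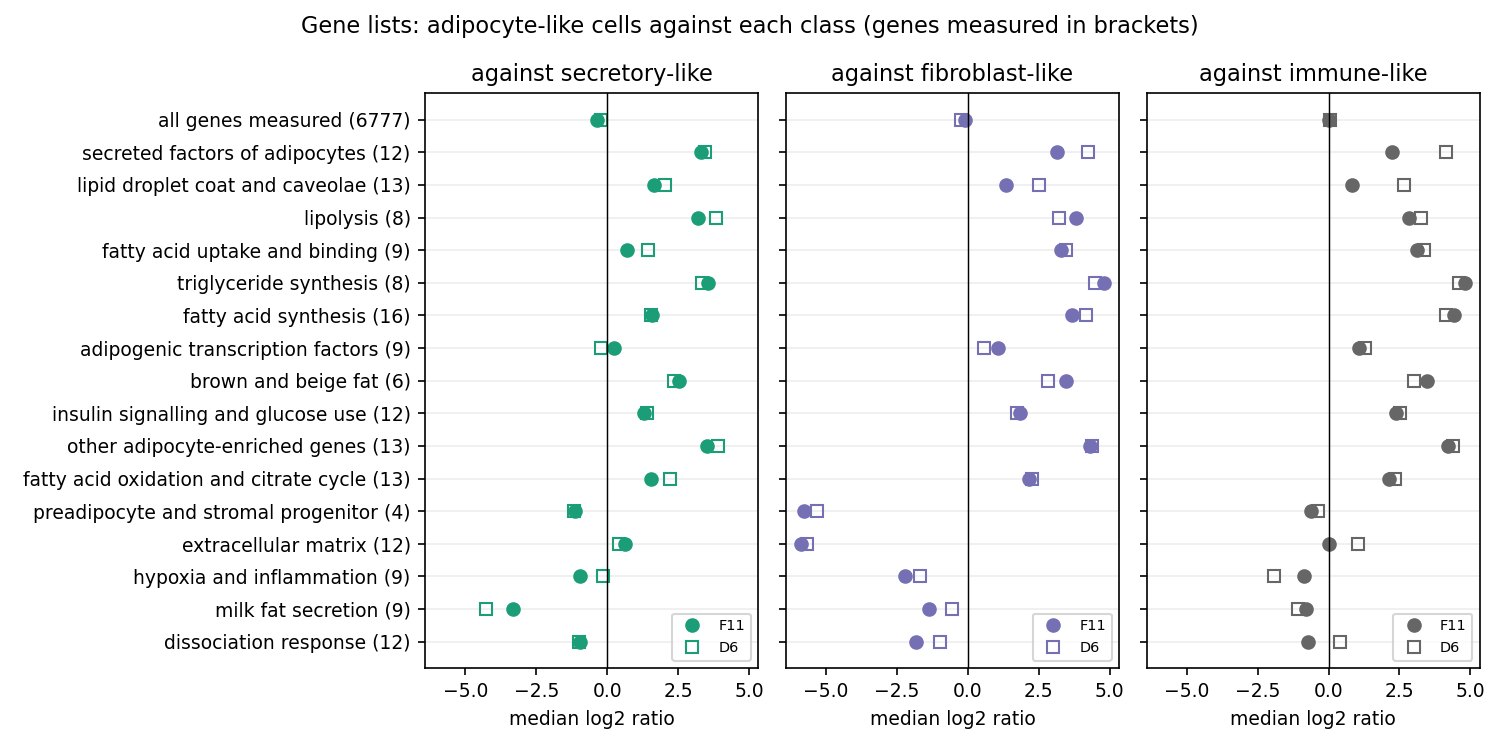
Median log2 ratio of each gene list, and of all genes tested, in adipocyte-like cells against secretory-like, fibroblast-like and immune-like cells (one panel each), with 5 CPM added; filled circles are F11 and open squares D6. Triglyceride synthesis and lipolysis lie to the right in all panels, fatty acid synthesis lies at 1.59 and 1.54 against secretory-like cells and at 3.66 and 4.17 against fibroblast-like cells, and milk fat secretion lies to the left against secretory-like cells (−3.31 and −4.27). The filter favours lists with genes tested only through the adipocyte-like cells, such as triglyceride synthesis and lipolysis. Milk fat secretion shares genes with the markers that named the secretory-like clusters. The extracellular matrix and preadipocyte lists share genes with the markers that named the fibroblast-like clusters.

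Outside the lists and marker sets lay 86 of the 130 higher genes. Ranked by the smallest of their 6 ratios (2 libraries, 3 classes), the first 10 included Cdo1, the cysteine dioxygenase that leads to taurine (1587 and 1678 CPM), Ppp1r1a, an inhibitor of protein phosphatase 1 (706 and 420.2 CPM), Arxes2, an adipocyte reticulum protein (466 and 509 CPM), and Fcor, a FoxO1 corepressor (336 and 515 CPM). They also held Slc7a10, an amino acid transporter (124 and 119 CPM), Prkar2b, a regulatory subunit of protein kinase A (225 and 331 CPM), Clstn3 (98.2 and 104 CPM), B3galt2 (114 and 131 CPM), Ces1f (111 and 102 CPM) and Mup17 (827 and 154 CPM). Clstn3 gave no UMI in any of the 3 classes of F11. Mup17, a major urinary protein, belongs to a family of near-identical genes, so its reads may be split among copies, and it was the one of these 10 whose libraries differed over 4-fold.

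The 7 lower genes were Ramp1, Ehd4, Bex3, Cxcl2, Cd9, Clic1 and Slc29a1. Cxcl2, a neutrophil chemokine, stood at 50.7 and 121 CPM against 408 and 1996 CPM in secretory-like and 10493 and 12876 CPM in immune-like cells. Cd9, a tetraspanin of the cell surface, stood at 57 and 13.1 CPM against 294 and 352 CPM in secretory-like cells. Clic1, a chloride channel protein, stood at 15.8 and 5.26 CPM against 114 and 127 CPM. None of the 7 stood 4-fold lower than all 3 classes with milk genes kept in the totals.

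Of the genes for the antigens used in the sort, Cd24a stood at 50.7 and 45.8 CPM, against 767 and 922 CPM in secretory-like cells, and Itgb1, which encodes CD29, at 50.7 and 51 CPM against 51.7 and 84 CPM there. Ptprc, which encodes CD45, gave no UMI in the adipocyte-like cells of either library, against 163 and 349 CPM in immune-like cells.

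No gene of the milk fat secretion or the inflammation list stood higher than all 3 classes. All 9 milk fat genes were tested and 8 stood lower than in secretory-like cells, where 5.05% of all genes did. With milk genes kept in the totals 3 stood lower, where 7 of all 6777 genes did. Btn1a1, Xdh, Muc1 and Cel of this list were also among the markers that named the secretory-like clusters, which favours a lower call for them. Mfge8, a protein of the milk fat globule, held 291 and 221 CPM against 4313 and 5408 CPM in secretory-like cells. Of 9 hypoxia and inflammation genes tested, 1 stood higher than in secretory-like cells (3.6% of all genes did) and 0 lower, 3 stood lower than in fibroblast-like cells (3.95% of all genes did) and 4 lower than in immune-like cells (3.93%). Among the lower ones was the chemokine gene Cxcl1, at 212 and 321 CPM against 2518 and 4267 CPM in immune-like cells.

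The list of 12 dissociation response genes, all tested, held none that stood higher or lower than all 3 classes. Against fibroblast-like cells 2 stood lower (3.95% of all genes did): Jun, at 443 and 467 CPM against 2771 and 2089 CPM, and Junb, at 383 and 358 CPM against 3296 and 2204 CPM, both subunits of the AP-1 transcription factor. Fos stood at 1156 and 940.4 CPM, 0.350 and 0.364 of the secretory-like level. With milk kept in the totals both turned above secretory-like cells in each library (log2 ratio 0.45 and 0.52 for Fos, 1.16 and 0.94 for Jun).

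The cells varied among themselves. Scaled to 10000 UMIs without milk, the 90th percentile of Cfd was 13.6 and 8.71 times the 10th, that of Scd1 7.51 and 7.17 times, that of Fasn 3.59 and 3.40 times and that of Car3 3.34 and 2.85 times. The mitochondrial share is given beside this spread. In F11, Cfd stood at 100120 CPM in the 22 cells under 10% mitochondrial share, 71219 CPM in the 36 cells at 10 to 15% and 45246 CPM in the 41 cells at 15 to 20%. In D6 it stood at 32006 CPM in 43 cells, 74427 CPM in 85 and 43618 CPM in 183. The 43 cells had a median milk share of 39.8% and 36 of them lay in the adipocyte cluster. With cells at 30% milk or more left out, Cfd under 10% mitochondrial share stood at 139197 CPM in 15 cells of F11 and 62743 CPM in 21 cells of D6.

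Free RNA and doublets were judged from indirect values. In secretory-like cells, which should lack adipocyte transcripts and which by the rule hold none of the cells past the gate, Cfd, Car3, Retn, Adipoq and Cidec lay at 0.453 to 0.679% of their adipocyte-like level in F11 and at 0.472 to 0.736% in D6. Barcodes with under 500 genes held the same 5 genes at 0.739 to 1.25% and 0.424 to 0.84% when those past the gate were left out, a choice that caps 4 of the 5 genes, and at 1.41 to 2.06% and 1.28 to 1.57% with them. Those barcodes are not empty droplets alone: their median was 1247 and 833 UMIs and their median mitochondrial share 2.86 and 52.1%. As a description of the rule's own gene, Adipoq was found in 91.9 and 97.7% of adipocyte-like cells (median depth 3109 and 6096 UMIs without milk) and in 1.60 and 3.26% of secretory-like cells (1872 and 3947 UMIs). Thinned to 500 UMIs these shares were 43.4 and 52.1% against 0.712 and 0.374%.

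**Figure D5:**
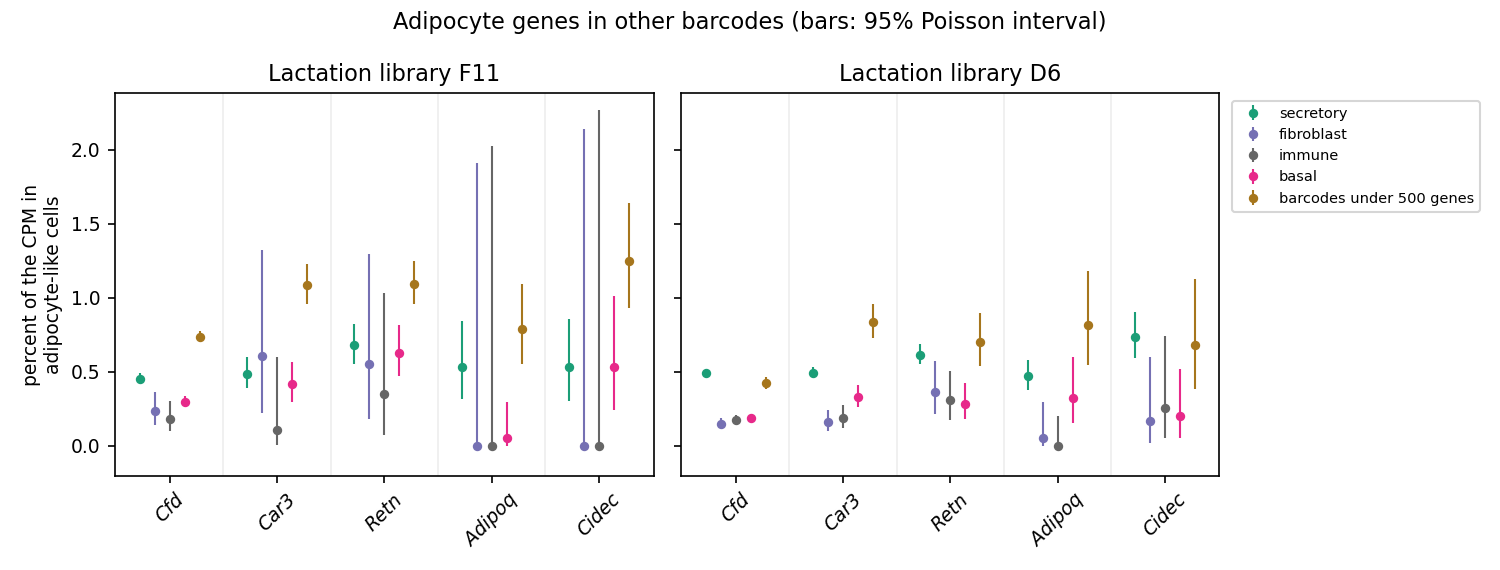
Level of Cfd, Car3, Retn, Adipoq and Cidec in other cell classes and in barcodes with under 500 genes, as a percent of the level in adipocyte-like cells of the same library, with 95% Poisson bars for counting error. Secretory-like cells lie between 0.453 and 0.736%, and fibroblast-like and immune-like cells between 0 and 0.608%.

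Milk transcripts were also found in adipocyte-like cells. Their median share was 14.8 and 3.54% of UMIs, against 31.9 and 5.82% in fibroblast-like, 29.0 and 5.51% in immune-like and 78.8 and 80.2% in secretory-like cells. As UMIs, the median was 530 and 232 in adipocyte-like, 654.5 and 134 in fibroblast-like and 698 and 164 in immune-like cells. A milk share of 30% or more was found in 14 and 23 adipocyte-like cells, and of 50% or more in 4 and 18. Without the cells at 30% or more, 132 genes stood higher and 14 lower, and 127 of the 130 remained.

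Few cells held a full complement of a second type's markers. Cells at or above the lower quartile of secretory-like cells in summed secretory markers numbered 4 in F11 and 15 in D6. For fibroblast markers they numbered 0 and 3, for basal markers 0 and 1, and for immune and mature luminal markers 0 in each library. At least 5 UMIs of endothelial markers were found in 2 and 12 cells. As sums, the 12 secretory markers stood at 7884 and 5985 CPM in adipocyte-like cells, below the 17998.4 and 9268 CPM of fibroblast-like and the 13473.6 and 12045 CPM of immune-like cells. The 13 immune markers summed to 38.0 and 56.3 CPM, with 10 and 3 of them at 0. The 11 fibroblast markers summed to 1055 and 2053 CPM, mostly Gsn, with 6 and 2 at 0. The doublet caller Scrublet called 1 and 2 cells of all kept cells and none of the adipocyte-like cells, too few to have worked, and 6 (6.06%) and 57 (18.3%) adipocyte-like cells were in the top 10% of its scores, beside 9.14 and 9.64% of all kept cells.

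Outside lactation the gate found few cells. In the other 16 libraries 15 of 121618 kept cells passed it: 7 in the E18.5 mammary library, 6 in adult FVB/NJ replicate A10, 1 in adult replicate P7 and 1 after involution, and 12 libraries had none. The 6 adult cells held Cfd at 28536.6 CPM (26715.3 to 30449.3), Fasn at 813 CPM (531 to 1191) and Scd1 at 5564 CPM (4776 to 6444). The 7 embryonic cells held Adipoq at 1362 CPM (1157 to 1592) and Car3 at 5741 CPM (5312 to 6196), but Cfd at 781 CPM (628 to 959), Fasn at 60.7 CPM (24.4 to 125) and Scd1 at 8.67 CPM (0.22 to 48.3). The cells are few. The embryonic ones come from a single C57BL/6 library, so stage, strain and library cannot be told apart there. The adult ones come from FVB/NJ mice at 10 weeks, mostly from A10, so stage and library cannot be told apart.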

How the data were processed

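The authors deposited raw counts (UMIs per gene and barcode) made with Cell Ranger (3.0.2 in the file headers of the lactation libraries, 3.1.0 in the submitters' processing notes; mm10) and kept barcodes to which at least 500 reads had been assigned. All 31053 features of F11 and D6 were read; 0 sample columns were left unused. Cells with 500 or more genes and under 20% mt- UMIs were kept. Each library was clustered alone with scanpy 1.11.5 and leidenalg 0.10.2 (2000 variable genes without milk, gate, mt-, ribosomal and haemoglobin genes, 20 components, 15 neighbours, resolution 1.0). Clusters were named by the marker set with most of its genes raised (2-fold, in 5% or more of cells, 3 genes or more), and left unnamed where another set had more of its markers among the 10 leading genes or where shallow cells had none of their own there. Counts were summed per class and library without the 8 milk genes; genes with 20 or more UMIs in at least 1 class of each library were tested by size (4-fold, 5 CPM added, both libraries). Folds against a class at 0 are not printed. Intervals are exact (Poisson or binomial, 95%) and cover counting error only. No replicate test was run. The calling script was tested on simulated data.

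The genes named were the gate genes, Car3 and 12 further adipocyte markers, up to 4 per list by level, the 10 largest higher and 6 lowest genes outside the lists, 3 markers of each other class, and the milk genes as a sum; list members that stood higher in all comparisons, and single genes added for their role (Insr, Ucp1, Cpt1b, Dio2, Pdgfra, Cd24a, Itgb1, Ptprc, Fads2), were named after their values were seen. The cells, lists and tests were chosen with earlier results of these data known. Coordinates are from GENCODE vM21 (GRCm38). Alternatives (TMM by edgeR 4.0.16, other priors, filters, gates, limits, resolutions, folds and libraries) are given at the end; some were chosen after seeing the data. Figures were drawn with matplotlib 3.10.9. The number of mice pooled per library differs between statements in the study and is not given. Some members of the lists are not reported here.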

Additional observations from a re-analysis of the deposited data

Results flagged for a closer look

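Some cells past the 20-UMI threshold lie outside the limits used here: 81 barcodes in F11 and 243 in D6 held 20 or more gate UMIs but failed the mitochondrial or the gene limit (49 and 227 by mitochondrial share, 32 and 16 by genes). These barcodes entered no comparison between classes; those failing by genes were counted in the free RNA values, and those failing by mitochondrial share in the count with no mitochondrial limit. Those failing by mitochondrial share held Cfd at 54769.8 and 20767 CPM and Scd1 at 18009 and 30695 CPM, and their median milk share was 13.9 and 3.46%.

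The gate also found 7 cells in the E18.5 mammary library and 6 in adult FVB/NJ replicate A10, outside the lactation comparison.

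Lep gave 77 UMIs in the basal-like cells of F11 and 182 in those of D6, a class that the comparisons did not use, against 2 and 14 in adipocyte-like cells. In F11, 68 of the 77 lay in a single cluster of 519 basal-like cells (107 CPM, 83.5 to 136). In D6, 66 lay in a cluster of 334 cells (110 CPM, 84.9 to 140), 95 in one of 204 (102 CPM, 82.4 to 125) that also held endothelial markers, and 18 in one of 43 that also had 11 of 13 immune markers raised. In F11 a further 4 UMIs lay in an unnamed cluster of 13 cells (231 CPM, 63.1 to 593) with 8 of 10 basal markers raised.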

How the results depend on the processing

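Alternatives changed how many cells and genes were counted. The 410 cells became 65 with a mitochondrial limit of 10% and 686 with none, and ranged from 99 to 311 with a library left out; the other 7 settings gave 320 to 559. The 130 higher genes became 231 with milk kept in the totals (all 130 among them), 50 with a filter of 100 UMIs, 359 at 2-fold and 71 at 8-fold, and ranged from 149 without D6 to 247 without F11; the other 10 settings gave 97 to 171. The 7 lower genes became 0 with milk kept, 37 and 1 with 1 and 20 CPM added, 11 without the top 10% of Scrublet scores, 14 without cells at 30% milk, 12 with the secretory class as all cells at 50% milk or more, 150 at 2-fold and 0 at 8-fold, and ranged from 25 to 64 with a library left out, so their number is not firm. A stricter limit leaves fewer cells or genes, and a single library asks less of a gene; for the other settings the cause was not tested. List medians changed sign in at least 1 alternative for adipogenic transcription factors, endothelial, mature luminal and pericyte genes. Without the low-count filter, the mean list median over 2 libraries and 3 classes fell from 4.26 to 2.83 for triglyceride synthesis. It fell from 3.36 to 1.96 for lipolysis and from 2.94 to 1.35 for brown and beige genes. It stayed at 3.25 for fatty acid synthesis and rose from 1.86 to 2.19 for insulin signalling and glucose use. Genes with under 20 UMIs in adipocyte-like cells, such as Lep and Ucp1, carry wide counting intervals. No paired test was run, as no result comes from a test, the cells having been chosen on the values compared. Each ratio was already taken within a library.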

Other observations

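Genes outside the lists were looked through after their values were seen, so these are values with no count behind them. Picked for being higher than all 3 classes, and no evidence on their pathway, were Gys2, a glycogen synthase, at 69.7 and 48.9 CPM, Pygl, glycogen phosphorylase, at 143 and 196 CPM, Gyg, glycogenin, at 120.4 and 164 CPM, and Gbe1, the branching enzyme, at 184 and 228 CPM. Ghr, the growth hormone receptor, held 697 and 731 CPM against 30 and 30.8 CPM in secretory-like cells. Of secreted factors outside the lists, Nrg4 held 101 and 88.9 CPM, Angptl8 82.4 and 38.4 CPM and Vegfb 79.2 and 56.3 CPM. Ifi27l2a, an interferon-inducible gene, held 9639 and 9355 CPM against 58.1 and 71.6 CPM in secretory-like and 685 and 980.4 CPM in immune-like cells.

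The libraries differed over 4-fold at 13 of the 1655 genes compared in adipocyte-like cells, 11 higher in F11 and 2 in D6. Spp1 held 767 CPM in F11 and 60.5 CPM in D6, and barcodes under 500 genes held it at 4962 and 309 CPM. Saa1 held 481 and 41.6 CPM, with 3713 and 7.47 CPM in those barcodes. Mup17 held 827 and 154 CPM, with 6.48 and 0 CPM there, and Thbs1 held 171 and 872 CPM, with 98.2 and 47.8 CPM there.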
